A study of Mus musculus with 24 samples.

Results

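The genes that copy DNA and divide the cell were followed in the mouse embryonic stem (ES) cell line R1 after knockdown of Cdk8 or Med12, which encode parts of the kinase module of the Mediator complex. The set holds 44 genes, 21 of DNA replication and 23 of mitosis, and a gene was measured where the RefSeq accession of a probe on the array matched its symbol. The transcription factors Mybl2 and E2f1 are counted with replication, and Foxm1 with mitosis. Of the 44 genes, 39 had a probe, 18 of replication and 21 of mitosis, out of 22387 genes tested. Gins1 and Gins2 (helicase cofactors), Rfc3 (a clamp loader subunit), Cenpf (a kinetochore protein) and Mki67 (the proliferation antigen Ki-67) had no matched probe and were not analysed here. The 39 genes had 52 probes, 1 probe for 28 genes, 2 for 9 and 3 for 2, and the brightest probe stood for its gene. All 39 were well above background on all 24 arrays, so none was measured in some groups alone.

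Each of the 24 arrays set Cy5-labelled RNA of R1 cells against a Cy3-labelled universal mouse reference RNA made from several mouse cell lines. There were 8 groups of 3 biological replicates: cells with the lentiviral hairpins shMed12-2 and shMed12-1 on day 13 after infection, with shCdk8-2 and shCdk8-1 on day 13 and on day 8, and with the non-targeting hairpin shNTC on day 13 and on day 8. Every group was infected, shNTC included. The labels do not say whether cells were pools or clones, which promoter drove the hairpins or whether replicates were separate cultures. The p-values therefore reflect only how far arrays lay apart within groups, pooled over all 8 groups, and this spread may be technical. A level is a log2 ratio to the reference RNA (above 0, more than in the reference), and a log2 fold change is a difference of 2 group means of it. A gene is called where limma gave an adjusted p under 0.05 over all 22387 genes. Where arrays of groups are said not to overlap, this describes the arrays that were tested and adds no support to a call. It was read for the genes of the set alone.

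A dividing cell loads the MCM helicase on its replication origins with Cdc6 and Cdt1, then unwinds and copies the DNA with polymerases, a primase and the PCNA clamp, from nucleotides made by ribonucleotide reductase and thymidylate synthase. Mitosis is driven by Cdk1 with its B cyclins, and by Polo and Aurora kinases, while the spindle checkpoint holds back the anaphase-promoting complex until chromosomes are attached. Replication genes are known as targets of E2F factors, and mitosis genes as targets of MuvB complexes with B-Myb (Mybl2) and FOXM1, which act at CHR elements and with NF-Y at CCAAT boxes; mouse ES cells cycle fast and express both sets at high levels.

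Those motifs were searched on both strands in the 250 bases before the RefSeq start site (GRCm38.p6), where 36 of the 44 genes had a promoter. The E2F motif (TTTCCCGC, TTTCGCGC, TTTGCCGC or TTTGGCGC) lay in 6 of 18 replication promoters (33.3%), in 1 of 18 mitosis promoters (5.6%) and in 1.9% of all 27025 promoters. The CHR motif (TTTGAA or TTCGAA) lay in 3 of 18 replication promoters (16.7%), in 8 of 18 mitosis promoters (44.4%) and in 17.4% of all promoters. The CCAAT box lay in 12 of 18 replication promoters (66.7%), in 16 of 18 mitosis promoters (88.9%) and in 34.5% of all. The promoters with an E2F match were those of Cdc6, Mcm5, Mcm6, Mcm7, Pola1 and Rfc3 and, among mitosis genes, Cdk1. No motif overlapped another in the promoters printed here, and a match describes letters, not a bound site.

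**Figure D1:**
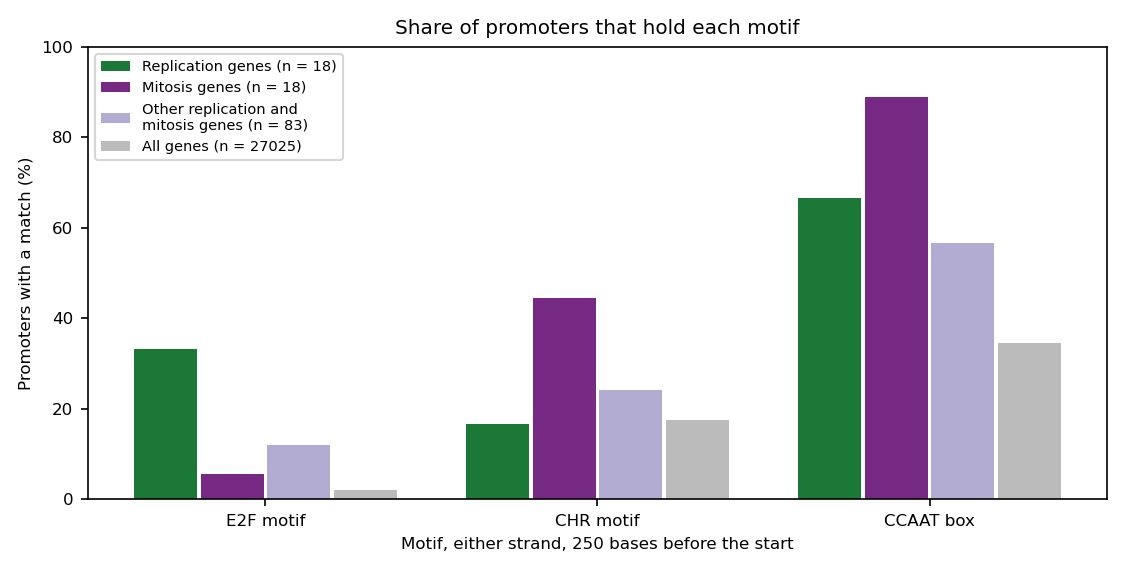
Bars give the percent of promoters with at least 1 match to each motif (y axis) for the E2F motif, the CHR motif and the CCAAT box (x axis), in replication genes, mitosis genes, the other replication and mitosis genes and all genes. The replication genes stand highest for the E2F motif at 33.3%, and the mitosis genes for the CHR motif at 44.4% and the CCAAT box at 88.9%.

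The promoters shown are those of 8 genes called in the same direction with both hairpins to Cdk8 on day 8 or to Med12, up to 4 of replication and 4 of mitosis, taken by the size of the change. Each line gives the 250 bases before the start site, 5′ to 3′ on the strand of the gene, from RefSeq, with CHR motifs and CCAAT boxes of either strand in capitals. The windows lie at chr2:163054385-163054634 (plus strand) for Mybl2, chr12:24708004-24708253 (plus strand) for Rrm2, chr16:23127731-23127980 (minus strand) for Rfc4, chr7:102441445-102441694 (plus strand) for Rrm1, chr11:99024190-99024439 (minus strand) for Top2a, chr2:127831860-127832109 (minus strand) for Bub1, chr19:37376132-37376381 (plus strand) for Kif11 and chr13:100786487-100786736 (minus strand) for Ccnb1. In Top2a 4 CHR motifs and 6 CCAAT boxes were found, and in Kif11 1 CHR motif at bases 19 to 14 and 1 CCAAT box at bases 45 to 41 before the start. Rrm1, Bub1 and Ccnb1 held 2 CCAAT boxes each and Rrm2 1, and none of the 8 held the E2F motif. The windows of Mybl2 and Rfc4 held none of these letters.
Mybl2: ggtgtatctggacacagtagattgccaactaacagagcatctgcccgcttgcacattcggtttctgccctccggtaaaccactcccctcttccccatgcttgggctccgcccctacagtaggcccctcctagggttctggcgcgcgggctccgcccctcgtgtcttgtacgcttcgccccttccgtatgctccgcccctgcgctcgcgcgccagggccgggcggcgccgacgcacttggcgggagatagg
Rrm2: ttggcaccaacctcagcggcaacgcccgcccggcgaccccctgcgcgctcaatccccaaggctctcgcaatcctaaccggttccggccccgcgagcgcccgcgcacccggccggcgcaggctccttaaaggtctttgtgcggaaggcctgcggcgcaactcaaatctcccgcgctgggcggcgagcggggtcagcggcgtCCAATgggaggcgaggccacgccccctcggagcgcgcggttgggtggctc
Rfc4: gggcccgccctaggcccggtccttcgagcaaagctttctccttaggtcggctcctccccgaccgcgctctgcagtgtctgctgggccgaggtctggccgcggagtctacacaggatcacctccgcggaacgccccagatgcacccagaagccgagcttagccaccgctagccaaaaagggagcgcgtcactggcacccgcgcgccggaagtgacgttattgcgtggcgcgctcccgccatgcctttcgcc
Rrm1: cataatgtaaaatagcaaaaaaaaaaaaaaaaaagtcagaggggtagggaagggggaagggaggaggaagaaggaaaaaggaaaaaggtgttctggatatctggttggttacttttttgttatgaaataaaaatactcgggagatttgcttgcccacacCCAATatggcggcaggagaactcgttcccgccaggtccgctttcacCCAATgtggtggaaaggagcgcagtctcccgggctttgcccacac
Top2a: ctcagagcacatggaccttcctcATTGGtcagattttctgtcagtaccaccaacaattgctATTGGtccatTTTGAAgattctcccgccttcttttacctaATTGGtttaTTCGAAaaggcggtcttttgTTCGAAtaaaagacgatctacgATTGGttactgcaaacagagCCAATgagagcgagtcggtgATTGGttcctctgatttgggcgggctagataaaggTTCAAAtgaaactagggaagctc
Bub1: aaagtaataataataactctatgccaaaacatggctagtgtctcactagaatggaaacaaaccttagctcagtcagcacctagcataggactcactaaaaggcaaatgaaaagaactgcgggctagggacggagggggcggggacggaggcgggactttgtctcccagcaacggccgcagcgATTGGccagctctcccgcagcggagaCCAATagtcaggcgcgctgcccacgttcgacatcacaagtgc
Kif11: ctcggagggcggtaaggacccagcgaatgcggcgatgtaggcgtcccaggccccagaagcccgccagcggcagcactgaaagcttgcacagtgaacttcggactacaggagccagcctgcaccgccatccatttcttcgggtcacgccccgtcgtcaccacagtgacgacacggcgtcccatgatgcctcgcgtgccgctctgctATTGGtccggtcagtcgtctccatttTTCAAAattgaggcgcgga
Ccnb1: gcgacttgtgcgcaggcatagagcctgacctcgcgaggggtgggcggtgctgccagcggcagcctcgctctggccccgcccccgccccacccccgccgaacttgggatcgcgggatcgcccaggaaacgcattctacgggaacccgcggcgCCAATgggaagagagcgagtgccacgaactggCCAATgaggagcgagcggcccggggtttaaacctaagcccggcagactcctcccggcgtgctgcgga

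Cdk8 fell by 0.95 with shCdk8-1 and 0.64 with shCdk8-2 on day 13 and by 0.71 and 0.31 on day 8, and Med12 fell by 1.00 with shMed12-1 and 0.88 with shMed12-2 (log2 fold changes, limma). On day 8 Med12 was called higher with shCdk8-2, by 0.34 (adjusted p = 0.00514), and shCdk8-1, by 0.25 (adjusted p = 0.0295). On day 13 it was not called with either Cdk8 hairpin (adjusted p = 0.412 and 0.543), nor was Cdk8 with shMed12-2 or shMed12-1 (adjusted p = 0.132 and 0.389). Between 48.9% and 76.1% of spots on an array were well above background. Replicate 1 of shCdk8-1 on day 8 and replicate 3 of shMed12-1 had compressed log ratios, each with a slope of 0.79 on the other arrays of its group, against 0.97 to 1.12 for the other 22 arrays. All shMed12 arrays, and no others, lay at position 4 of their slide, so that position and Med12 knockdown cannot be told apart. All 11 measured ES cell markers were above the reference in every group. Their array means were 5.003 to 5.17 with shMed12-2, 4.23 to 4.99 with shMed12-1, 5.24 to 5.35 with shCdk8-2 and 5.12 to 5.21 with shCdk8-1, against 5.41 to 5.50 with shNTC on day 13. On day 8 the means were 5.39 to 5.48 with shCdk8-2 and 4.29 to 5.32 with shCdk8-1, against 5.45 to 5.55 with shNTC. Of these 11 markers, 1 was called lower with shMed12-2, 7 with shMed12-1, 1 with shCdk8-2 and 2 with shCdk8-1 on day 13. On day 8 it was 0 with shCdk8-2 and 2 with shCdk8-1, and none was higher in these 6 comparisons. Their median log2 fold change on day 13 was -0.28 with shMed12-2, -0.68 with shMed12-1, -0.07 with shCdk8-2 and -0.34 with shCdk8-1. On day 8 it was -0.02 with shCdk8-2 and -0.59 with shCdk8-1. The 2 lowest of these medians are those of the groups with a compressed array, whose part in them was not tested. Of 17 measured fibroblast markers 1 or 2 were above the reference in a group (array means -3.94 to -2.89). Of them, 3 were called higher and 1 lower with shMed12-2 and 5 higher and 0 lower with shMed12-1. All 17 fibroblast log2 fold changes with shMed12-1, a group with a compressed array, were above 0, with a median of 0.43. The median on day 13 was 0.28 with shMed12-2, 0.23 with shCdk8-2 and 0.22 with shCdk8-1. With shCdk8-2 and shCdk8-1 the fibroblast calls were 2 higher and 0 lower each on day 13, and 0 and 4 with shCdk8-2 and 1 and 3 with shCdk8-1 on day 8. The 9 endoderm markers had array means of -1.23 to -0.88 with the Med12 hairpins, -1.14 to -1.11 with the Cdk8 hairpins and -0.78 to -0.68 with shNTC on day 13, and of -0.84 to -0.19 with the Cdk8 hairpins and 0.08 to 0.12 with shNTC on day 8. Of these 9, 0 were called higher and 5 lower with shMed12-2, and 1 and 4 with shMed12-1. With shCdk8-2 there were 0 and 5 on day 13 and 0 and 6 on day 8. With shCdk8-1 there were 0 and 4 on day 13 and 1 and 5 on day 8. Beside all these marker calls, 17.8% of all genes were called with shMed12-2 and 24.9% with shMed12-1. With shCdk8-2 and shCdk8-1 it was 11.6% and 12.6% on day 13 and 14.0% and 16.9% on day 8. The part of these marker levels in the changes below was not tested.

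In shNTC cells most of the set stood above the reference RNA, 31 of 39 genes on day 13 and 32 on day 8. On day 13 the replication genes had a median log2 ratio of 0.73, between -0.49 (Rrm1) and 3.29 (Mybl2), and the mitosis genes one of 0.30, between -1.84 (Cdc25b) and 1.88 (Ccnb1). Replicates lay close together: the within-group SD had a median of 0.07 over the 39 genes, from 0.03 for Ccnb1 to 0.15 for Ttk, against 0.10 over all genes.

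Most values of the set were not called after knockdown. Of 234 log2 fold changes (39 genes in 6 comparisons of a hairpin with shNTC of its day, where hairpins of 1 day share their shNTC arrays), 44 were called, 10 higher and 34 lower. The largest was 0.48, for Rrm2, and the widest 95% bound reached 0.60. At least 1 call fell on 21 genes, 18 had none, and Mcm3 alone was called in both directions. In bulk RNA, fewer cells in a phase of the cycle and less RNA per cell cannot be told apart.

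With shMed12-2, 2 of 39 genes were called higher and 6 lower, beside 17.8% of all genes called, 9.04% higher and 8.77% lower. With shMed12-1 there were 1 higher and 9 lower, beside 24.9% of all genes called, 12.9% higher and 12.0% lower. On day 13 shCdk8-2 had 0 higher and 6 lower, beside 11.6% of all genes called, 5.86% higher and 5.70% lower, and shCdk8-1 had 1 higher and 2 lower, beside 12.6% of all genes called, 6.50% higher and 6.11% lower. On day 8 shCdk8-2 had 3 higher and 7 lower, beside 14.0% of all genes called, 7.39% higher and 6.62% lower, and shCdk8-1 had 3 higher and 4 lower, beside 16.9% of all genes called, 8.64% higher and 8.22% lower. The called share of the 39 genes was 20.5% with shMed12-2, 25.6% with shMed12-1, 15.4% and 7.69% with shCdk8-2 and shCdk8-1 on day 13, and 25.6% and 17.9% on day 8, so that shCdk8-2 on day 8 stood farthest above its background. Calls ran lower more often than higher in all 6 comparisons.

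For shCdk8-2 on day 8, Feature Extraction's own log ratios and the authors' deposited values gave 7 higher and 8 lower. The share of all genes called with shCdk8-2 in these settings is not given here, and in the fit used above it was 14.0%. More of all genes were then called in 1 direction with both Cdk8 hairpins on that day, 8.4% and 8.73%, against 5.1%. That share cannot exceed the share for 1 hairpin and is no background for the counts with shCdk8-2. For shCdk8-1 on day 8 there were 1 higher and 6 lower in the Cy5 channel alone, and 1 higher and 0 lower after median centring, where the called share of all genes in the 6 comparisons was 0.898% to 5.9%. The count of genes called on day 13 was 5 with shMed12-2 without its replicate 3, and 6 with shMed12-1 without shNTC replicate 1. With shCdk8-2 it was 3 without shNTC replicate 1 or replicate 2 on day 13, and 6 without shCdk8-2 replicate 3 on day 8.

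The calls divided between the subgroups as follows. Of 18 replication genes, 2 higher and 3 lower were called with shMed12-2, 1 and 6 with shMed12-1, 0 and 5 with shCdk8-2 and 1 and 1 with shCdk8-1 on day 13, and 1 and 2 with shCdk8-2 and 2 and 3 with shCdk8-1 on day 8. Of 21 mitosis genes, none was called higher on day 13, while 3 were called lower with each Med12 hairpin and 1 with each Cdk8 hairpin. On day 8, 2 mitosis genes were called higher and 5 lower with shCdk8-2, and 1 each way with shCdk8-1. In the order of the replication counts, the called share of the replication genes was 27.8%, 38.9%, 27.8%, 11.1%, 16.7% and 27.8%. The called share of the mitosis genes was 14.3%, 14.3%, 4.76%, 4.76%, 33.3% and 9.52%. Beside these, 17.8%, 24.9%, 11.6%, 12.6%, 14.0% and 16.9% of all genes were called. The median log2 fold change of the replication genes was -0.14 with shCdk8-2 and -0.11 with shMed12-1 on day 13, and that of the mitosis genes -0.09 with shCdk8-2 on day 8. The other 9 subgroup medians lay between -0.05 and 0.03, and the median over all genes was within 0.01 of 0 in every comparison. The 3 medians named kept their sign under every scaling tried, and that of the replication genes with shCdk8-1 on day 8 was 0.18 after median centring and -0.07 in the Cy5 channel alone.

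**Figure D2:**
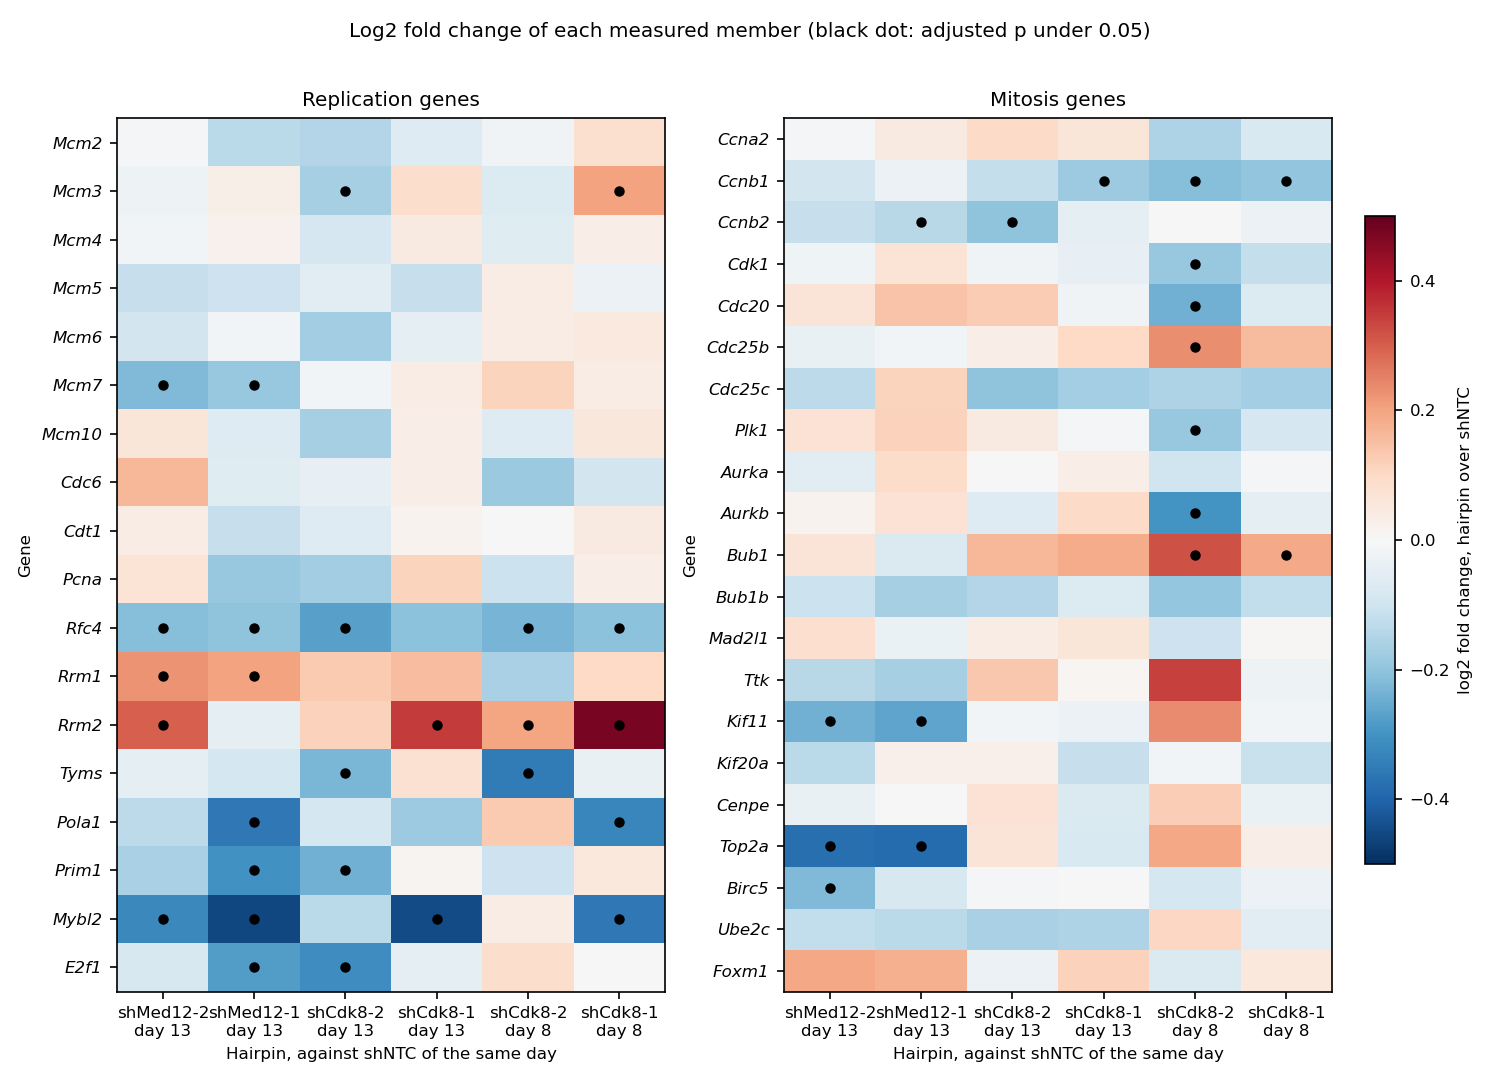
Each cell is the log2 fold change of 1 gene (rows) with 1 hairpin against shNTC of the same day (columns), with replication genes in the left panel and mitosis genes in the right. Colour runs from blue (lower) to red (higher), and black dots mark the 44 called values, of which 34 are lower.

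After Med12 knockdown Top2a, Mybl2, Kif11, Mcm7 and Rfc4 fell and Rrm1 rose with both hairpins. These are 6 of 39 genes, where 8.61% of all genes were so called, 4.79% higher and 3.82% lower. Top2a, the topoisomerase that untangles sister DNA before chromosomes separate, had log2 ratios of -0.45, -0.49 and -0.35 with shMed12-2 and -0.51, -0.40 and -0.41 with shMed12-1, against -0.14, 0.08 and -0.10 with shNTC on day 13. All 6 knockdown arrays lay below all 3 shNTC arrays. The log2 fold changes were -0.38 (SE 0.07, adjusted p = 0.000802) with shMed12-2 and -0.39 (SE 0.07, adjusted p = 0.000524) with shMed12-1, or 1.3-fold and 1.31-fold lower. A second Top2a probe gave -0.49 (adjusted p = 0.000623) and -0.48 (adjusted p = 0.000679). Both calls held in each fit that left out 1 array.

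Mybl2, which encodes B-Myb, a transcription factor that activates mitosis genes, had log2 ratios of 2.97, 2.98 and 2.94 with shMed12-2 and 2.83, 2.80 and 2.87 with shMed12-1, against 3.36, 3.23 and 3.27 with shNTC on day 13. The groups did not overlap. Its log2 fold changes were -0.32 (SE 0.07, adjusted p = 0.00241) with shMed12-2 and -0.45 (SE 0.07, adjusted p = 7.08e-05) with shMed12-1, kept in each fit that left out 1 array. Kif11, the motor that pushes spindle poles apart, had log2 ratios of 0.08, 0.05 and -0.02 with shMed12-2 and -0.0014, -0.02 and 0.05 with shMed12-1, against 0.33, 0.25 and 0.25 with shNTC, again with no overlap. Its log2 fold changes were -0.24 (SE 0.08, adjusted p = 0.0424) and -0.26 (SE 0.08, adjusted p = 0.0204). A second Kif11 probe gave -0.08 (adjusted p = 0.724) and -0.05 (adjusted p = 0.812), neither called, and the mean over probes was -0.16 (adjusted p = 0.18) and -0.16 (adjusted p = 0.156). The call with shMed12-2 was lost whichever of the 6 arrays was left out (-0.26 to -0.21, adjusted p = 0.0671 to 0.147), and that with shMed12-1 was lost without shNTC replicate 1, shMed12-1 replicate 1 and shMed12-1 replicate 2 in turn (-0.26 to -0.24, adjusted p = 0.0532 to 0.0791).

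Among replication genes, Mcm7, a subunit of the helicase, had log2 ratios of 0.54, 0.59 and 0.49 with shMed12-2 and 0.48, 0.55 and 0.69 with shMed12-1, against 0.79, 0.76 and 0.73 with shNTC on day 13. Every Med12 knockdown array was below every shNTC array, and the log2 fold changes were -0.22 (SE 0.06, adjusted p = 0.01) and -0.19 (SE 0.06, adjusted p = 0.0211). The call with shMed12-2 was lost without shMed12-2 replicate 3 (-0.19, adjusted p = 0.0537), and that with shMed12-1 was lost without shNTC replicate 1, shNTC replicate 2, shMed12-1 replicate 1 and shMed12-1 replicate 2 in turn (-0.19 to -0.14, adjusted p = 0.0557 to 0.108). Rrm1, the large subunit of ribonucleotide reductase, had log2 ratios of -0.26, -0.28 and -0.25 with shMed12-2 and -0.38, -0.26 and -0.22 with shMed12-1, against -0.51, -0.50 and -0.45 with shNTC. It was the single gene higher with both Med12 hairpins, with log2 fold changes of 0.23 (SE 0.06, adjusted p = 0.00765) and 0.20 (SE 0.06, adjusted p = 0.0131). The second of these calls was lost without shMed12-1 replicate 3 (0.17, adjusted p = 0.0716). It was also lost in the Cy5 channel alone, at 0.11 (adjusted p = 0.283), with only its groups in the fit, at an adjusted p of 0.0591, and without both compressed arrays, at 0.17 (adjusted p = 0.0658).

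Rfc4, a subunit of the loader that places the PCNA clamp on DNA, was called lower in 5 of the 6 comparisons. On day 13 its log2 ratios were 0.89, 0.87 and 0.89 with shMed12-2, 0.88, 0.93 and 0.87 with shMed12-1, 0.83, 0.87 and 0.77 with shCdk8-2 and 0.87, 0.93 and 0.86 with shCdk8-1, against 1.08, 1.12 and 1.09 with shNTC. On day 8 they were 0.81, 0.79 and 0.70 with shCdk8-2 and 0.90, 0.79 and 0.68 with shCdk8-1, against 1.20, 0.91 and 0.89 with shNTC. All 12 knockdown arrays of day 13 lay below the 3 shNTC arrays, whereas on day 8 shNTC replicate 1 stood well above the other 2 shNTC arrays and shCdk8-1 overlapped shNTC. The log2 fold changes were -0.21 (SE 0.07, adjusted p = 0.0337) with shMed12-2, -0.20 (SE 0.07, adjusted p = 0.0357) with shMed12-1, -0.27 (SE 0.07, adjusted p = 0.0123) with shCdk8-2 and -0.21 (adjusted p = 0.0538), not called, with shCdk8-1. On day 8 they were -0.23 (SE 0.07, adjusted p = 0.0275) with shCdk8-2 and -0.21 (SE 0.07, adjusted p = 0.044) with shCdk8-1. The day 8 call with shCdk8-2 was lost without shNTC replicate 1 (-0.13, adjusted p = 0.19) and shCdk8-2 replicate 3 (-0.20, adjusted p = 0.115), and that with shCdk8-1 was lost without shNTC replicate 1, shCdk8-1 replicate 2 and shCdk8-1 replicate 3 in turn (-0.20 to -0.10, adjusted p = 0.0892 to 0.283). The shCdk8-2 call of day 13 was kept in all 6 fits that left out 1 array. That with shMed12-2 was lost whichever of the 6 arrays was left out (-0.22 to -0.20, adjusted p = 0.0729 to 0.102), and that with shMed12-1 was lost without shNTC replicate 1, shNTC replicate 2, shNTC replicate 3, shMed12-1 replicate 1 and shMed12-1 replicate 3 in turn (-0.21 to -0.19, adjusted p = 0.0722 to 0.101).

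The 8 slides carried 2 to 4 arrays each, of different groups. With slide in the fit, 13 of the 44 called values kept their call, 31 lost it and 0 turned their direction. The share of all genes called was then 12.7% with shMed12-2, 6.76% with shMed12-1, 5.57% with shCdk8-2 and 3.98% with shCdk8-1 on day 13, and 6.17% and 3.71% on day 8. None of the 39 genes was then called with both hairpins to Med12 (3.16% of all genes) or to Cdk8 (1.25% on day 13 and 1.38% on day 8). The 13 were Rrm2, Mybl2, Top2a, Rrm1 and Birc5 with shMed12-2, E2f1 and Ccnb2 with shCdk8-2 and Rrm2 with shCdk8-1 on day 13, and Bub1, Cdc20, Ccnb1 and Cdk1 with shCdk8-2 and Rrm2 with shCdk8-1 on day 8. For shMed12-2 the blocked values were -0.34 (adjusted p = 0.0252) for Top2a, -0.29 (adjusted p = 0.0148) for Mybl2, 0.23 (adjusted p = 0.0311) for Rrm1, -0.17 (adjusted p = 0.101) for Mcm7, -0.22 (adjusted p = 0.065) for Kif11 and -0.20 (adjusted p = 0.141) for Rfc4. On the slides that held an shMed12-2 and an shNTC array of day 13, slides 1 and 2, the differences were -0.54 and -0.39 for Top2a, -0.26 and -0.29 for Mybl2, -0.17 and -0.21 for Kif11, -0.22 and -0.14 for Mcm7, -0.23 and -0.22 for Rfc4 and 0.24 and 0.17 for Rrm1. For shMed12-1, whose arrays shared no slide with shNTC of day 13, the blocked values were -0.31 (adjusted p = 0.188) for Top2a, -0.26 (adjusted p = 0.153) for Mybl2, -0.23 (adjusted p = 0.275) for Rfc4, 0.17 (adjusted p = 0.309) for Rrm1, -0.10 (adjusted p = 0.578) for Mcm7 and -0.01 (adjusted p = 0.984) for Kif11.

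**Figure D3:**
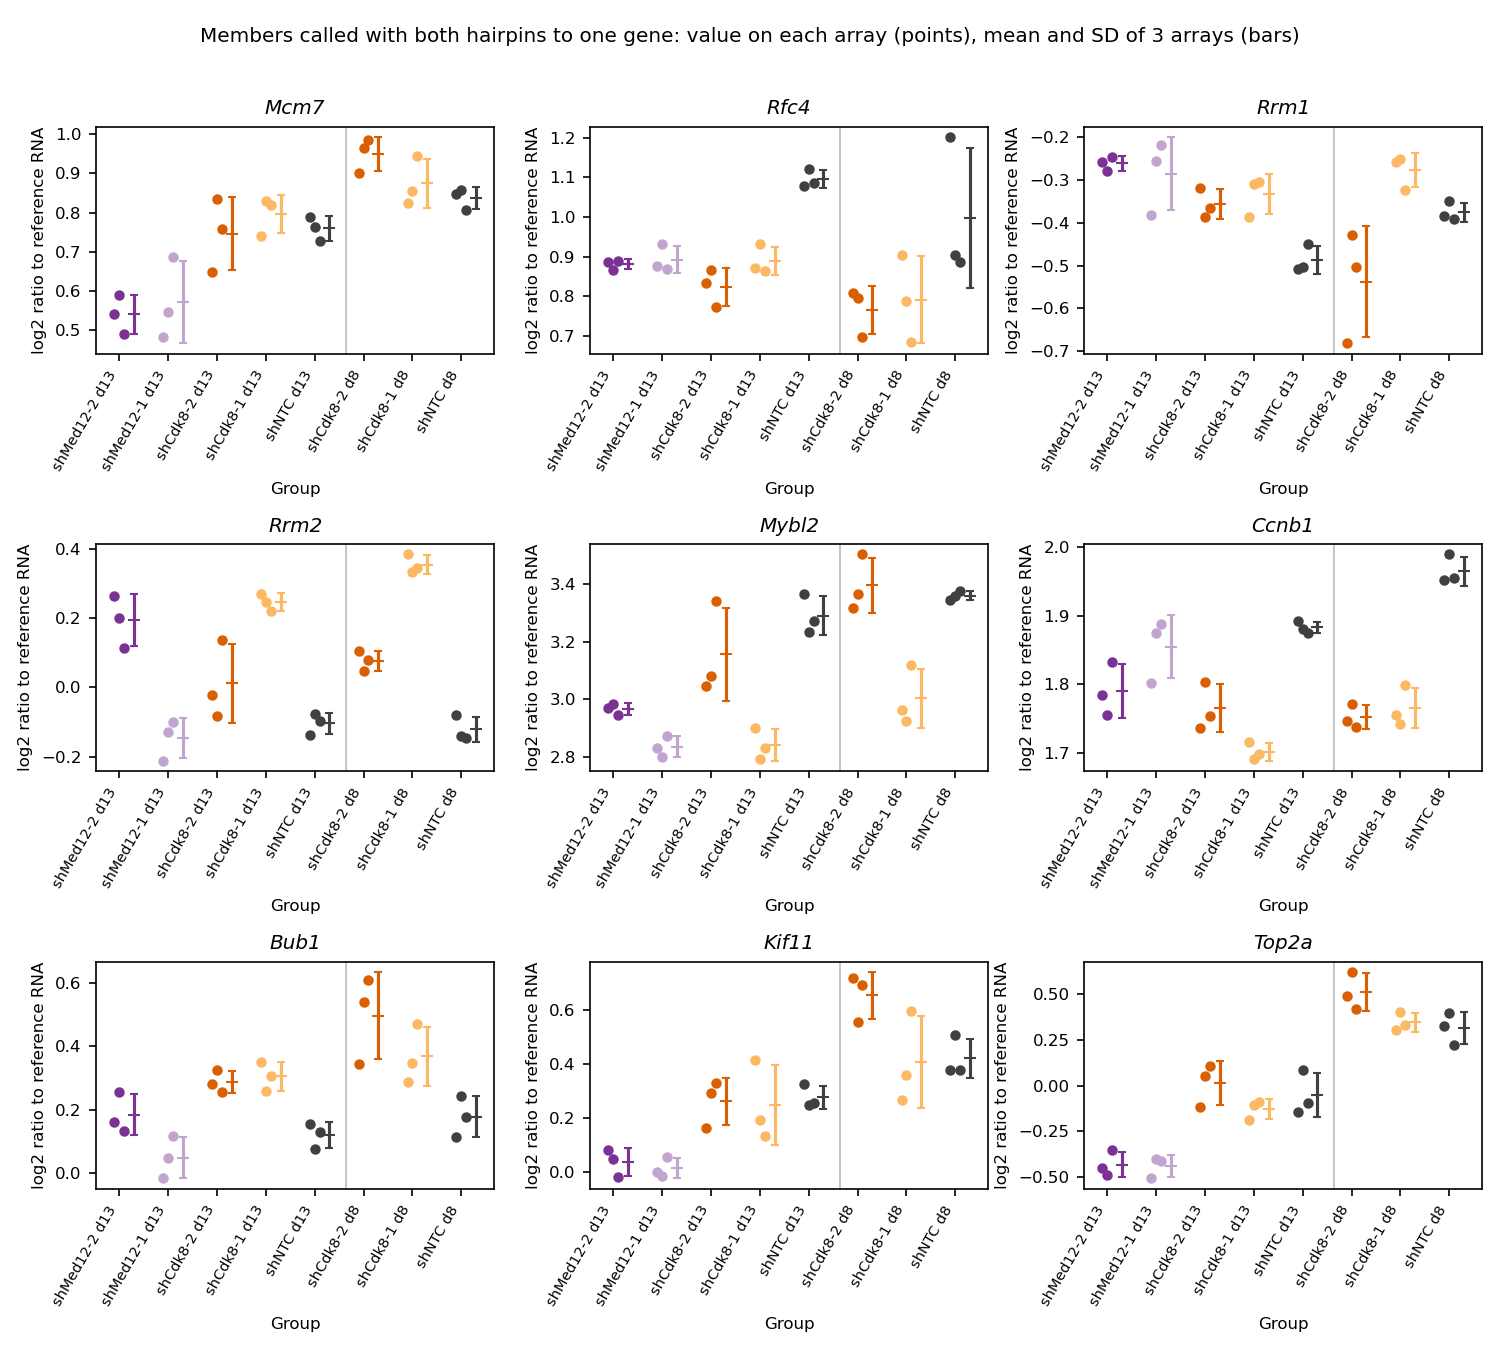
Points are log2 ratios to the reference RNA (y axis) on each of 3 arrays in 8 groups (x axis, day 13 left of the line and day 8 right of it) for 9 genes called in 1 direction with both hairpins to Cdk8 or to Med12. Bars give the mean and SD. The Med12 arrays of Top2a lie between -0.51 and -0.35, below every other array of that gene, and those of Mcm7 and Kif11 lie below every shNTC array of day 13.

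After Cdk8 knockdown on day 8 Rrm2 and Bub1 rose and Ccnb1 and Rfc4 fell with both hairpins, 4 of 39 genes where 5.10% of all genes were so called, 2.78% higher and 2.32% lower. Rrm2, the small, cell cycle-regulated subunit of ribonucleotide reductase, had log2 ratios of 0.11, 0.05 and 0.08 with shCdk8-2 and 0.38, 0.33 and 0.35 with shCdk8-1, against -0.08, -0.14 and -0.15 with shNTC on day 8. No groups overlapped, and shCdk8-1 lay above shCdk8-2. Its log2 fold changes were 0.20 (SE 0.05, adjusted p = 0.0171) with shCdk8-2 and 0.48 (SE 0.05, adjusted p = 3.79e-06) with shCdk8-1. The call with shCdk8-2 was lost without shNTC replicate 2, shNTC replicate 3 and shCdk8-2 replicate 1 in turn (0.18 to 0.19, adjusted p = 0.0563 to 0.0661), and that with shCdk8-1 was kept in all 6 fits that left out 1 array. Bub1, a kinase of the spindle checkpoint, had log2 ratios of 0.34, 0.54 and 0.61 with shCdk8-2 and 0.29, 0.35 and 0.47 with shCdk8-1, against 0.11, 0.24 and 0.18 with shNTC. The knockdown arrays lay above the shNTC arrays, with log2 fold changes of 0.32 (SE 0.06, adjusted p = 0.00209) and 0.19 (SE 0.06, adjusted p = 0.0496). The call with shCdk8-1 was lost without shNTC replicate 1, shNTC replicate 2, shNTC replicate 3, shCdk8-1 replicate 2 and shCdk8-1 replicate 3 in turn (0.14 to 0.22, adjusted p = 0.0541 to 0.186). In the Cy5 channel alone the genes called with both hairpins on day 8 were Tyms, Ccnb1, Cdk1 and Cdc25c, all lower (7.36% of all genes so called in 1 direction). With only the groups compared there were 0 (2.27% of all genes).

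Ccnb1 encodes cyclin B1, the partner of Cdk1 at entry into mitosis. Its log2 ratios were 1.75, 1.77 and 1.74 with shCdk8-2 and 1.76, 1.74 and 1.80 with shCdk8-1, against 1.95, 1.99 and 1.95 with shNTC on day 8. The groups did not overlap, and the log2 fold changes were -0.21 (SE 0.04, adjusted p = 0.00101) and -0.20 (SE 0.04, adjusted p = 0.00157). This rests on 1 of 3 probes: the other 2 gave 0.04 (adjusted p = 0.779) and -0.01 (adjusted p = 0.967) with shCdk8-2, and 0.04 (adjusted p = 0.717) and 0.03 (adjusted p = 0.707) with shCdk8-1. The mean over the 3 probes gave -0.06 (adjusted p = 0.398) with shCdk8-2 and -0.04 (adjusted p = 0.561) with shCdk8-1, and was not called. With slide in the fit the shCdk8-2 values were -0.23 (adjusted p = 0.0306) for Ccnb1, 0.36 (adjusted p = 0.0163) for Bub1, 0.19 (adjusted p = 0.159) for Rrm2 and -0.29 (adjusted p = 0.0853) for Rfc4. On slide 1, which held an shCdk8-2 and an shNTC array of day 8, the differences were -0.21 for Ccnb1, 0.49 for Bub1, 0.16 for Rrm2 and -0.51 for Rfc4. With shCdk8-1, which shared no slide with shNTC of its day, slide in the fit gave 0.55 (adjusted p = 0.00601) for Rrm2, -0.18 (adjusted p = 0.2) for Ccnb1, 0.30 (adjusted p = 0.12) for Bub1 and -0.25 (adjusted p = 0.276) for Rfc4.

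On day 13, 0 of 39 genes were called in 1 direction with both Cdk8 hairpins, where 4.22% of all genes were. There were 2, Ccnb1 and Cdc25c, both lower, with Feature Extraction's log ratios, the authors' deposited values and the Cy5 channel alone (8.17%, 8.45% and 5.22% of all genes). There were also 2, Rfc4 and Cdc25c, without the 2 compressed arrays (6.8%). Rfc4 alone was so called with the replicate block (4.1%) and with only the groups compared (5.34%). Rrm2 had log2 ratios of -0.02, -0.08 and 0.14 with shCdk8-2 and 0.27, 0.25 and 0.22 with shCdk8-1, against -0.14, -0.08 and -0.10 with shNTC on day 13. It rose with shCdk8-1, by 0.35 (SE 0.05, adjusted p = 0.000157), and was at 0.12 (adjusted p = 0.199) with shCdk8-2, not called. Ccnb1 had log2 ratios of 1.74, 1.80 and 1.75 with shCdk8-2 and 1.72, 1.69 and 1.70 with shCdk8-1, against 1.89, 1.88 and 1.88 with shNTC. All 6 knockdown arrays lay below the shNTC arrays, but the log2 fold change was called with shCdk8-1 alone, at -0.18 (SE 0.04, adjusted p = 0.00395), against -0.12 (adjusted p = 0.061) with shCdk8-2. The shCdk8-2 value was called from Feature Extraction's log ratios, at -0.13 (adjusted p = 0.00719), and in the Cy5 channel alone, at -0.20 (adjusted p = 0.0309). For shCdk8-1 the other 2 probes gave 0.09 (adjusted p = 0.452) and 0.02 (adjusted p = 0.84), the mean over probes -0.02 (adjusted p = 0.812) and the slide block -0.16 (adjusted p = 0.221). Bub1, at 0.17 (adjusted p = 0.109) with shCdk8-2 and 0.19 (adjusted p = 0.0689) with shCdk8-1, was not called. In limma, the difference between the Cdk8 effect on day 13 and that on day 8 was called for 0 of 39 genes (2.37% of all genes), with 5 at an unadjusted p under 0.05 and a lowest adjusted p of 0.128, and for 1 gene from Feature Extraction's own log ratios.

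Mybl2 was called lower with shCdk8-1 on both days and not with shCdk8-2. On day 13 its log2 ratios were 3.05, 3.08 and 3.34 with shCdk8-2 and 2.90, 2.79 and 2.83 with shCdk8-1, against 3.36, 3.23 and 3.27 with shNTC. On day 8 they were 3.32, 3.37 and 3.50 with shCdk8-2 and 2.96, 2.93 and 3.12 with shCdk8-1, against 3.35, 3.36 and 3.38 with shNTC. Only shCdk8-1 lay below shNTC on both days without overlap. Its log2 fold changes were -0.45 (SE 0.07, adjusted p = 0.000176) on day 13 and -0.36 (SE 0.07, adjusted p = 0.00135) on day 8, and those with shCdk8-2 were -0.13 (adjusted p = 0.265) and 0.04 (adjusted p = 0.814). Without shCdk8-2 replicate 3 the day 13 value with shCdk8-2 was -0.23 and called (adjusted p = 0.0286). The hairpins differed from each other by 0.32 (SE 0.07, adjusted p = 0.00469) on day 13 and by 0.39 (SE 0.07, adjusted p = 0.000555) on day 8 (shCdk8-2 over shCdk8-1). Those differences were not called with slide as a block, at 0.23 (adjusted p = 0.173) and 0.24 (adjusted p = 0.252), or with only both hairpin groups in the fit, at adjusted p-values of 0.0524 and 0.0618. Blocking by slide gave shCdk8-1 values of -0.28 (adjusted p = 0.119) on day 13 and -0.20 (adjusted p = 0.333) on day 8, and a rise of Rrm2 with shCdk8-1 of 0.45 (adjusted p = 0.0128) on day 13.

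Other replication genes were called with 1 hairpin to a gene at a time. E2f1, a transcription factor that drives genes of S phase, had log2 ratios of 0.39, 0.41 and 0.31 with shMed12-2, 0.19, 0.14 and 0.19 with shMed12-1, 0.02, 0.14 and 0.27 with shCdk8-2 and 0.32, 0.47 and 0.44 with shCdk8-1, against 0.49, 0.45 and 0.42 with shNTC on day 13. It fell with shMed12-1, at -0.28 (SE 0.06, adjusted p = 0.00282), and with shCdk8-2, at -0.31 (SE 0.06, adjusted p = 0.00265). Its second probe fell in both comparisons too, at -0.25 (adjusted p = 0.00725) and -0.49 (adjusted p = 4.35e-05). With shMed12-2 and shCdk8-1 the gene was at -0.08 (adjusted p = 0.453) and -0.04 (adjusted p = 0.757), not called. Under the slide block the shMed12-1 value was -0.24 (adjusted p = 0.163). On day 8 its means (± SD, n = 3) were 0.76 ± 0.10 with shCdk8-2, 0.68 ± 0.04 with shCdk8-1 and 0.67 ± 0.06 with shNTC, and neither hairpin was called, although the second probe went the other way from the first with shCdk8-2 and fell, at -0.22 (adjusted p = 0.0279).

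Tyms, the thymidylate synthase, fell with shCdk8-2 on both days. Its log2 ratios were 0.57, 0.46 and 0.37 with shCdk8-2, against 0.66, 0.64 and 0.79 with shNTC on day 13, and 0.48, 0.52 and 0.40 with shCdk8-2, against 0.77, 0.76 and 0.92 with shNTC on day 8. The log2 fold changes were -0.23 (SE 0.07, adjusted p = 0.0425) on day 13 and -0.35 (SE 0.07, adjusted p = 0.0021) on day 8, with -0.18 (adjusted p = 0.0258) and -0.34 (adjusted p = 0.000157) from a second probe. The day 13 call was lost without shNTC replicate 1, shNTC replicate 2, shNTC replicate 3, shCdk8-2 replicate 2 and shCdk8-2 replicate 3 in turn (-0.26 to -0.18, adjusted p = 0.0569 to 0.188). The slide block gave -0.27 (adjusted p = 0.0788) on day 13 and -0.29 (adjusted p = 0.062) on day 8 for Tyms. With shCdk8-1 the gene was at 0.08 (adjusted p = 0.582) on day 13 and -0.04 (adjusted p = 0.789) on day 8, not called. The difference between the Cdk8 hairpins was -0.31 (SE 0.07, adjusted p = 0.00698) on day 13 and -0.31 (SE 0.07, adjusted p = 0.00418) on day 8. Under the slide block these were -0.21 (adjusted p = 0.235) and -0.16 (adjusted p = 0.478), not called. Its means (± SD, n = 3) were 0.65 ± 0.09 with shMed12-2 and 0.60 ± 0.06 with shMed12-1, against 0.69 ± 0.08 with shNTC on day 13.

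Pola1 and Prim1 encode the catalytic subunits of DNA polymerase alpha and of the primase that starts each DNA strand. Group means of the Pola1 log2 ratio (± SD, n = 3) were 0.53 ± 0.04 with shMed12-2, 0.30 ± 0.07 with shMed12-1, 0.57 ± 0.12 with shCdk8-2, 0.48 ± 0.04 with shCdk8-1 and 0.66 ± 0.05 with shNTC on day 13, and 0.99 ± 0.07 with shCdk8-2, 0.54 ± 0.19 with shCdk8-1 and 0.86 ± 0.02 with shNTC on day 8. Pola1 fell with shMed12-1, at -0.36 (SE 0.07, adjusted p = 0.00136), and with shCdk8-1 on day 8, at -0.33 (SE 0.07, adjusted p = 0.00465). The Cy5 channel alone gave -0.20 (adjusted p = 0.0914) with shMed12-1 and -0.12 (adjusted p = 0.356) in that day 8 comparison, neither called. Group means of the Prim1 log2 ratio were -0.41 ± 0.03 with shMed12-2, -0.55 ± 0.09 with shMed12-1, -0.49 ± 0.08 with shCdk8-2, -0.24 ± 0.10 with shCdk8-1 and -0.25 ± 0.06 with shNTC on day 13, and -0.31 ± 0.04 with shCdk8-2, -0.15 ± 0.07 with shCdk8-1 and -0.20 ± 0.06 with shNTC on day 8. Prim1 fell with shMed12-1, at -0.30 (SE 0.06, adjusted p = 0.00101), and with shCdk8-2 on day 13, at -0.24 (SE 0.06, adjusted p = 0.0123). The shCdk8-2 call was lost without shNTC replicate 1, shNTC replicate 2 and shCdk8-2 replicate 3 in turn (-0.23 to -0.20, adjusted p = 0.0506 to 0.0607). Under the slide block Pola1 was at -0.20 (adjusted p = 0.397) with shMed12-1 and -0.19 (adjusted p = 0.48) with shCdk8-1 on day 8, and Prim1 at -0.19 (adjusted p = 0.276) with shMed12-1 and -0.21 (adjusted p = 0.14) with shCdk8-2.

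The log2 fold changes of the Mcm genes lay between -0.22 and 0.20 in all 6 comparisons. Mcm2, Mcm4, Mcm5 and Mcm6 and the initiation factor Mcm10 were called in none, and Mcm7 with the Med12 hairpins as above. Mcm3 was called higher with shCdk8-1 on day 8, at 0.20 (SE 0.05, adjusted p = 0.0124), and lower with shCdk8-2 on day 13, at -0.17 (SE 0.05, adjusted p = 0.0452). Group means of the Mcm3 log2 ratio (± SD, n = 3) were 1.21 ± 0.09 with shMed12-2, 1.26 ± 0.01 with shMed12-1, 1.07 ± 0.03 with shCdk8-2, 1.32 ± 0.08 with shCdk8-1 and 1.24 ± 0.02 with shNTC on day 13, and 1.27 ± 0.07 with shCdk8-2, 1.54 ± 0.06 with shCdk8-1 and 1.34 ± 0.01 with shNTC on day 8. The day 8 call was lost without shCdk8-1 replicate 1 (0.17, adjusted p = 0.057), and the day 13 call was lost whichever of the 6 arrays was left out (-0.18 to -0.15, adjusted p = 0.0815 to 0.131). Group means of the Mcm7 log2 ratio on day 8 were 0.95 ± 0.04 with shCdk8-2, 0.87 ± 0.06 with shCdk8-1 and 0.84 ± 0.03 with shNTC. The licensing factors Cdc6 and Cdt1 were not called. For Cdc6 the brightest probe gave 0.03 on day 13 and -0.09 on day 8 with shCdk8-1, and a second probe gave 0.42 (adjusted p = 0.0016) and 0.33 (adjusted p = 0.00852), both called higher.

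Pcna, the clamp that holds DNA polymerases on their template, was called with no hairpin. Group means of its log2 ratio (± SD, n = 3) were 0.24 ± 0.04 with shMed12-2, -0.01 ± 0.03 with shMed12-1, 0.00098 ± 0.11 with shCdk8-2, 0.29 ± 0.10 with shCdk8-1 and 0.17 ± 0.03 with shNTC on day 13, and 0.24 ± 0.07 with shCdk8-2, 0.38 ± 0.18 with shCdk8-1 and 0.35 ± 0.04 with shNTC on day 8. The log2 fold changes ran from -0.19 (adjusted p = 0.0685) with shMed12-1 to 0.11 (adjusted p = 0.402) with shCdk8-1 on day 13. The shMed12-1 value was called from Feature Extraction's log ratios, at -0.24 (adjusted p = 0.0281), and from the Cy5 channel alone, at -0.26 (adjusted p = 0.0352), and with only its 2 groups in the fit.

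Rrm2, raised by both Cdk8 hairpins on day 8, had log2 ratios of 0.26, 0.20 and 0.11 with shMed12-2 and -0.21, -0.13 and -0.10 with shMed12-1, against -0.14, -0.08 and -0.10 with shNTC on day 13. All shMed12-2 arrays lay above the shNTC arrays, while shMed12-1 overlapped them. It rose with shMed12-2, at 0.30 (SE 0.05, adjusted p = 0.000466), and at 0.32 (adjusted p = 0.00489) with slide in the fit, and was at -0.04 (adjusted p = 0.609) with shMed12-1. Rrm1, at 0.13 (adjusted p = 0.162) with shCdk8-2 and 0.15 (adjusted p = 0.0875) with shCdk8-1 on day 13 and -0.16 (adjusted p = 0.0639) and 0.10 (adjusted p = 0.272) on day 8, was not called after Cdk8 knockdown.

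Of the mitosis genes, 5 fell with shCdk8-2 on day 8. Besides Ccnb1 they were Cdk1, the kinase of mitotic entry, Plk1, the Polo kinase, Aurkb, the Aurora kinase of the chromosomal passenger complex, and Cdc20, the activator of the anaphase-promoting complex. Aurkb had log2 ratios of -0.41, -0.23 and -0.27 with shCdk8-2, against -0.06, 0.04 and 0.01 with shNTC, a log2 fold change of -0.30 (SE 0.07, adjusted p = 0.00865). Cdc20 had 1.24, 1.27 and 1.13 with shCdk8-2, against 1.48, 1.46 and 1.42 with shNTC, a log2 fold change of -0.24 (SE 0.06, adjusted p = 0.00542). For Plk1 the log2 fold change was -0.19 (SE 0.06, adjusted p = 0.0354) and for Cdk1 -0.19 (SE 0.06, adjusted p = 0.0284). In all 4 the shCdk8-2 arrays lay below the shNTC arrays of day 8, the same arrays that gave the calls. Cdc25b, a phosphatase that activates Cdk1, rose, with log2 ratios of -1.60, -1.64 and -1.50 with shCdk8-2, against -1.78, -1.81 and -1.84 with shNTC, a log2 fold change of 0.23 (SE 0.06, adjusted p = 0.00792). With shCdk8-1 these 5 genes were not called, at -0.04 for Aurkb, -0.07 for Cdc20, -0.08 for Plk1, -0.12 for Cdk1 and 0.16 for Cdc25b.

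These single-hairpin calls of day 8 varied in how they held. The Plk1 call was lost without shNTC replicate 1, shNTC replicate 2, shNTC replicate 3, shCdk8-2 replicate 1 and shCdk8-2 replicate 3 in turn (-0.21 to -0.14, adjusted p = 0.0514 to 0.173), and the Cdk1 call was lost without shNTC replicate 2, shNTC replicate 3, shCdk8-2 replicate 2 and shCdk8-2 replicate 3 in turn (-0.20 to -0.16, adjusted p = 0.0529 to 0.132). The Aurkb call was lost without shCdk8-2 replicate 1 (-0.25, adjusted p = 0.0506), and the Cdc25b call was lost without shCdk8-2 replicate 3 (0.19, adjusted p = 0.0506). The Cdc20 call was kept in all 6 fits that left out 1 array, but in the Cy5 channel alone Cdc20 was at -0.06 (adjusted p = 0.733). With slide in the fit Cdc20 was at -0.31 (adjusted p = 0.0233), Cdk1 at -0.23 (adjusted p = 0.0395), Plk1 at -0.21 (adjusted p = 0.152), Aurkb at -0.25 (adjusted p = 0.201) and Cdc25b at 0.23 (adjusted p = 0.0965). The Cdk1 call was also lost with Feature Extraction's log ratios, at -0.11 (adjusted p = 0.211), with the authors' deposited values, at -0.11 (adjusted p = 0.207), and with the mean over probes, at -0.11 (adjusted p = 0.134). It was lost too, at adjusted p-values of 0.0566 and 0.0743, with no filter and with only its groups in the fit. The Cy5 channel alone lost the calls of Plk1, at -0.16 (adjusted p = 0.245), and Aurkb, at -0.22 (adjusted p = 0.12). The mean over probes lost that of Cdc25b, at 0.12 (adjusted p = 0.391). A second Cdk1 probe gave -0.02 (adjusted p = 0.896), and 1 of 2 further Cdc25b probes was called, the probes giving 0.22 (adjusted p = 0.0467) and -0.09 (adjusted p = 0.726).

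On day 13, Ccnb2 (cyclin B2) had log2 ratios of 0.83, 0.93 and 0.91 with shMed12-2, 0.86, 0.85 and 0.88 with shMed12-1, 0.82, 0.83 and 0.77 with shCdk8-2 and 0.95, 0.93 and 1.00 with shCdk8-1, against 1.03, 0.98 and 1.01 with shNTC. It fell with shMed12-1, at -0.14 (SE 0.05, adjusted p = 0.0344), and with shCdk8-2, at -0.20 (SE 0.05, adjusted p = 0.00767). The call with shMed12-1 was lost whichever of the 6 arrays was left out (-0.15 to -0.13, adjusted p = 0.0545 to 0.104), and that with shCdk8-2 was kept in all 6 fits that left out 1 array. Birc5, survivin of the chromosomal passenger complex, had log2 ratios of 0.39, 0.39 and 0.35 with shMed12-2 and 0.51, 0.47 and 0.56 with shMed12-1, against 0.62, 0.59 and 0.58 with shNTC. All 6 knockdown arrays were below the shNTC arrays, with a log2 fold change of -0.22 (SE 0.05, adjusted p = 0.00583) with shMed12-2 and of -0.08 (adjusted p = 0.294) with shMed12-1, not called. Under the slide block Birc5 was at -0.23 (adjusted p = 0.0369) with shMed12-2, and Ccnb2 and E2f1 were at -0.25 (adjusted p = 0.0289) and -0.37 (adjusted p = 0.0151) with shCdk8-2.

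Cdk1 was not called on day 13. Group means of its log2 ratio (± SD, n = 3) were 0.28 ± 0.03 with shMed12-2, 0.37 ± 0.03 with shMed12-1, 0.28 ± 0.12 with shCdk8-2, 0.26 ± 0.07 with shCdk8-1 and 0.30 ± 0.02 with shNTC on day 13, and 0.14 ± 0.04 with shCdk8-2, 0.21 ± 0.07 with shCdk8-1 and 0.33 ± 0.06 with shNTC on day 8. Foxm1, the forkhead factor of mitosis genes, was called with no hairpin, with group means of 0.02 ± 0.07 with shMed12-2, 0.01 ± 0.10 with shMed12-1, -0.20 ± 0.12 with shCdk8-2, -0.06 ± 0.03 with shCdk8-1 and -0.17 ± 0.05 with shNTC on day 13, and -0.30 ± 0.12 with shCdk8-2, -0.18 ± 0.07 with shCdk8-1 and -0.23 ± 0.02 with shNTC on day 8. Its log2 fold changes with the Med12 hairpins were 0.19 (adjusted p = 0.058) and 0.18 (adjusted p = 0.0639), and the shMed12-2 value was called without the 2 compressed arrays, at 0.19 (adjusted p = 0.0415), and with only its 2 groups in the fit. Group means of the Ccnb1 log2 ratio were 1.79 ± 0.04 with shMed12-2 and 1.85 ± 0.05 with shMed12-1, against 1.88 ± 0.01 with shNTC on day 13. Top2a was at 0.07 (adjusted p = 0.662) with shCdk8-2 and -0.08 (adjusted p = 0.595) with shCdk8-1 on day 13 and at 0.19 (adjusted p = 0.0816) and 0.03 (adjusted p = 0.815) on day 8, not called, though Feature Extraction's log ratios called it higher with shCdk8-2 on day 8, at 0.22 (adjusted p = 0.0306).

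The mitosis genes with no call in the 6 comparisons were Ccna2 (cyclin A2), Cdc25c (a Cdk1 phosphatase), Aurka (the Aurora kinase of spindle poles), Bub1b, Mad2l1 and Ttk (spindle checkpoint), Kif20a (a motor of cytokinesis), Cenpe (a kinetochore motor), Ube2c (which hands ubiquitin to targets of the anaphase-promoting complex) and Foxm1. Ttk had the widest spread between arrays and reached 0.34 (adjusted p = 0.06) with shCdk8-2 on day 8. A missed threshold does not show that these genes were equal: the half-width of the 95% interval had a median of 0.13 over the 234 values.

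The tests between hairpins to the same gene asked where 2 knockdowns of 1 gene differed. Between shCdk8-2 and shCdk8-1 on day 13, 1 gene was higher and 8 were lower, beside 11.7% of all genes called, 5.55% higher and 6.13% lower, with Mybl2 higher and Tyms (-0.31), Pcna (-0.28) and E2f1 (-0.27) the lowest. On day 8, 4 were higher and 6 lower, beside 17.8% of all genes called, 9.17% higher and 8.58% lower. They were led by Pola1 (0.46, SE 0.07, adjusted p = 0.00025), Mybl2 and Ttk (0.37) upward and by Tyms, Rrm2 (-0.28) and Mcm3 (-0.27) downward. Between shMed12-2 and shMed12-1, 5 were higher and 2 lower, beside 21.5% of all genes called, 10.3% higher and 11.2% lower. Rrm2 (0.34, SE 0.05, adjusted p = 0.00011), Pcna (0.26), Pola1 (0.23), Cdc6 (0.23) and E2f1 (0.20) were higher, Cdc25c (-0.24) and Kif20a (-0.16) lower. The 5 higher genes are all of the replication subgroup, in which the transcription factor E2f1 is counted, and the 2 lower of the mitosis subgroup. With slide as a block these tests called 0 genes between the Med12 hairpins, beside 6.19% of all genes. Between the Cdk8 hairpins they called 0 on day 8 and 0 higher and 6 lower on day 13, beside 2.69% and 5.61%. With only both groups in the fit they called 4 higher and 0 lower between the Med12 hairpins, 0 on day 8 and 0 higher and 2 lower on day 13. The shares of all genes were 14.7%, 2.85% and 9.44%. In the Cy5 channel alone it was 4 higher and 3 lower on day 8, and 6 higher and 1 lower between the Med12 hairpins. The Med12 count was 2 without shMed12-1 replicate 1, 3 without shMed12-1 replicate 3, shMed12-2 replicate 1 or shMed12-2 replicate 2, and 4 without shMed12-2 replicate 3. The day 8 count was 6 without shCdk8-1 replicate 1, a compressed array, and the day 13 count 5 without shCdk8-1 replicate 1 or shCdk8-2 replicate 1.

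Set against each other on day 13, as means of both hairpins, Med12 and Cdk8 knockdown differed in 8 genes, 3 higher and 5 lower with Med12 knockdown, beside 18.2% of all genes called, 9.69% higher and 8.50% lower. Lower were Top2a (-0.38, SE 0.05, adjusted p = 2e-05), Kif11 (-0.23, SE 0.06, adjusted p = 0.00665), Mcm7 (-0.22, SE 0.04, adjusted p = 0.000674), Bub1 (-0.18, SE 0.05, adjusted p = 0.00831) and Birc5 (-0.15, SE 0.04, adjusted p = 0.00892). Higher were Cdc25c (0.17, SE 0.05, adjusted p = 0.017), Foxm1 (0.14, SE 0.05, adjusted p = 0.0463) and Ccnb1 (0.09, SE 0.03, adjusted p = 0.031). Of the genes called with both Med12 hairpins, Mybl2 (-0.10, adjusted p = 0.197), Rfc4 (0.03, adjusted p = 0.737) and Rrm1 (0.07, adjusted p = 0.252) were not called in this test. Feature Extraction's log ratios gave 3 higher and 8 lower, and the share of all genes called by this test in that setting is not given here. That setting called more of all genes with both Med12 hairpins as well (12.1%, against 8.61%), which is a share of another kind. The slide block and the mean over probes gave 1 higher and 4 lower each. With only the groups compared there were 0 higher and 5 lower, and after median centring 0. The calls of Ccnb1 (0.10, adjusted p = 0.0818), Foxm1 (0.12, adjusted p = 0.205) and Birc5 (-0.14, adjusted p = 0.0588) were lost under the slide block. With the mean over probes the calls of Kif11 (-0.13, adjusted p = 0.109) and Cdc25c (0.12, adjusted p = 0.0746) were lost. Ccnb1 then changed sign, at -0.05 (adjusted p = 0.232), so its direction in this test rests on the brightest probe.

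Many of these genes differed between the days in shCdk8-2 cells. Between day 13 and day 8, 4 genes were higher and 17 lower in shCdk8-2 cells, beside 27.3% of all genes called, 12.3% higher and 15.0% lower. In shCdk8-1 cells 0 were higher and 5 lower, beside 24.1% of all genes called, 11.3% higher and 12.8% lower. In shNTC cells 0 were higher and 5 lower, beside 17.6% of all genes called, 8.57% higher and 9.01% lower. Top2a, Cenpe and E2f1 were lower on day 13 in all 3, beside 5.07% of all genes, and these comparisons share no arrays. The same 3 were called with the slide block (3.48% of all genes), Cenpe and Top2a with the mean over probes, and none after median centring. Top2a changed by -0.49 (SE 0.07, adjusted p = 3.09e-05) with shCdk8-2, -0.47 (SE 0.07, adjusted p = 5.45e-05) with shCdk8-1 and -0.36 (SE 0.07, adjusted p = 0.00123) with shNTC. Cenpe changed by -0.35 (SE 0.07, adjusted p = 0.00115) with shCdk8-2, -0.34 (SE 0.07, adjusted p = 0.00187) with shCdk8-1 and -0.30 (SE 0.07, adjusted p = 0.00713) with shNTC. E2f1 changed by -0.62 (SE 0.06, adjusted p = 3.97e-07) with shCdk8-2, -0.27 (SE 0.06, adjusted p = 0.00398) with shCdk8-1 and -0.22 (SE 0.06, adjusted p = 0.0203) with shNTC. In the Cy5 channel alone E2f1 was not called with shCdk8-1, at -0.18 (adjusted p = 0.142), or shNTC, at -0.20 (adjusted p = 0.111). The mean over its probes was -0.17 (adjusted p = 0.0386) with shCdk8-1 and -0.12 (adjusted p = 0.166), not called, with shNTC. Its probes differed in sign with shCdk8-2 on day 8, as given above.

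The checkpoint gene Bub1b (-0.22) and Aurka (-0.16) were also lower on day 13 in shNTC cells, and Mcm2 (-0.24) and Mcm3 (-0.22) in shCdk8-1 cells. In shCdk8-2 cells the further lower genes included 5 of 7 Mcm genes, namely Mcm2, Mcm3, Mcm6, Mcm7 and Mcm10, between -0.25 and -0.20, with Pola1 (-0.42, SE 0.07, adjusted p = 0.00025) and Kif11 (-0.39, SE 0.08, adjusted p = 0.000852) the lowest after E2f1 and Top2a. Higher were Cdc20 (0.41, SE 0.06, adjusted p = 9.67e-06), Mad2l1 (0.21), Rrm1 (0.18) and Plk1 (0.17). For Cdc20 the log2 ratios were 1.64, 1.68 and 1.57 on day 13 and 1.24, 1.27 and 1.13 on day 8 with shCdk8-2, and 1.54, 1.45 and 1.52 on day 13 and 1.48, 1.46 and 1.42 on day 8 with shNTC. Feature Extraction's log ratios gave 1 higher and 8 lower in shCdk8-1 cells, and median centring 1 higher and 1 lower in shCdk8-2 cells. The shares of all genes called in these single comparisons are not given here for those settings, and in the main fit they were 24.1% in shCdk8-1 cells and 27.3% in shCdk8-2 cells. The share called lower in shCdk8-2, shCdk8-1 and shNTC cells at once was 8.17% and 1.38% in these settings, against 5.07%. That share cannot exceed the share for 1 comparison and is no background for the counts above. The shCdk8-2 count was 13 without its day 13 replicate 1, and the shNTC count was 2 or 3 without any of its arrays but day 8 replicate 1. With slide in the fit 15 genes were called in shCdk8-2 cells, 5 in shCdk8-1 cells and 5 in shNTC cells. All day 8 arrays but 1 lay at position 1 of their slides and all day 13 arrays at positions 2 to 4, so that day and position cannot be told apart.

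**Figure D4:**
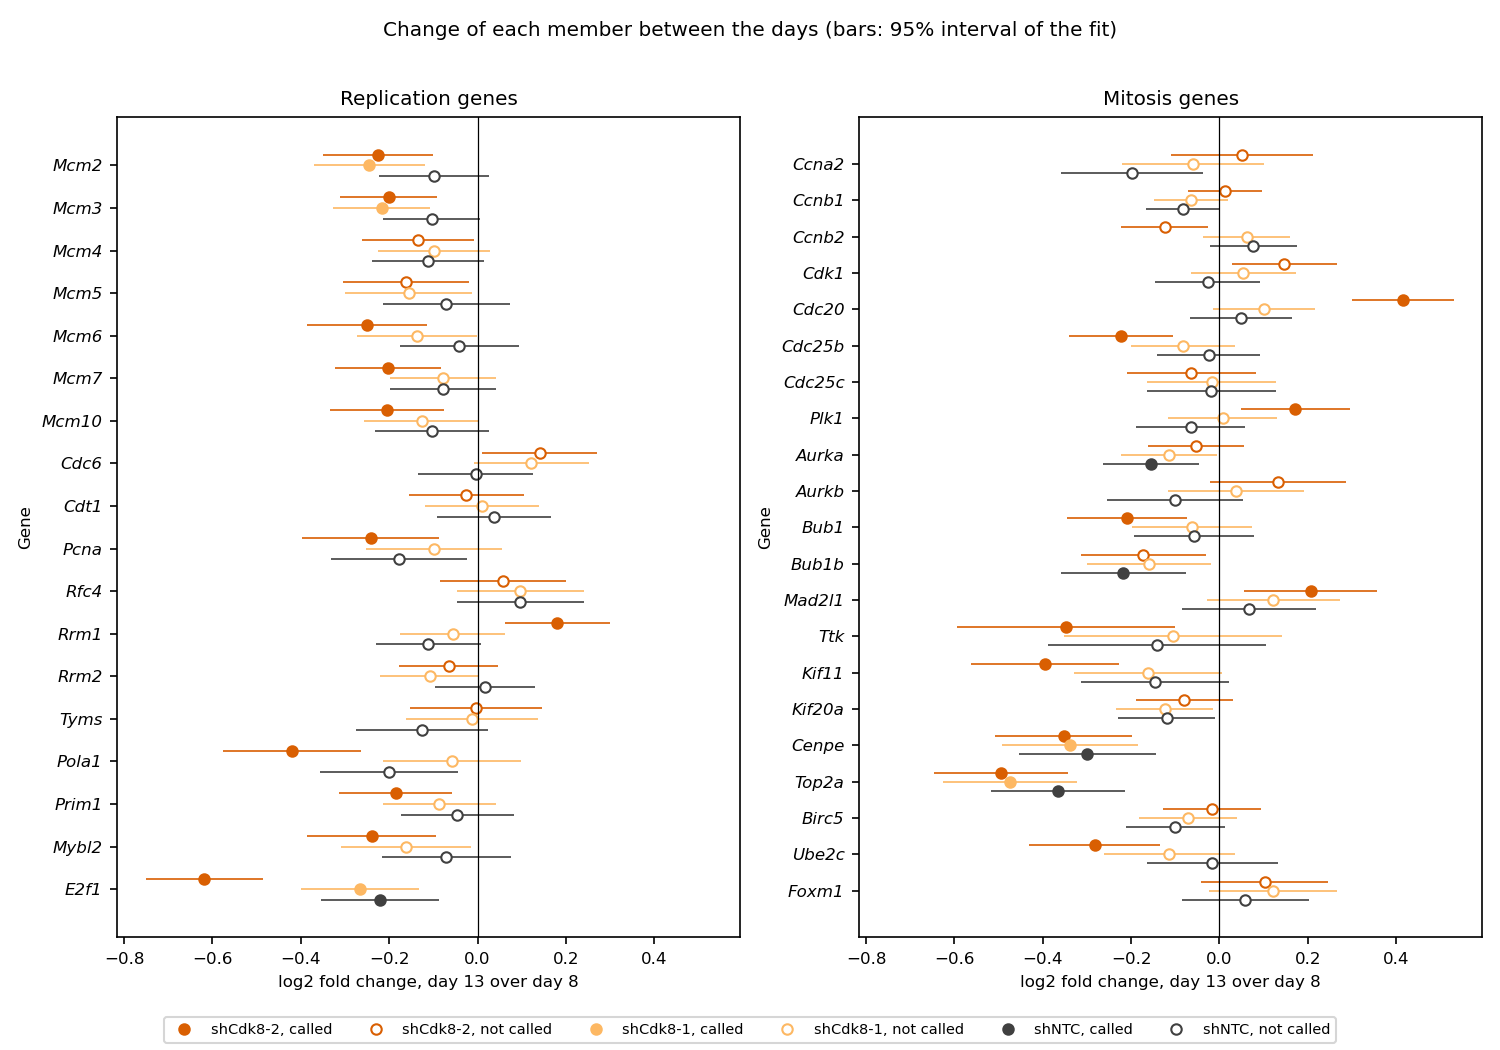
Points are log2 fold changes of day 13 over day 8 (x axis) for each gene (y axis) in shCdk8-2, shCdk8-1 and shNTC cells, with replication genes left and mitosis genes right. Bars are 95% intervals of the fit and filled points are called. Top2a, Cenpe and E2f1 are filled and below 0 in all 3, and shCdk8-2 has 21 filled points.

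Further genes of both pathways, from lists chosen with earlier results of these data known, were read beside the same shares of all genes. Of 41 other replication genes tested, 2 were called higher and 6 lower with shMed12-2, 3 and 13 with shMed12-1, 1 and 8 with shCdk8-2 and 1 and 4 with shCdk8-1 on day 13, and 2 and 6 with shCdk8-2 and 3 and 4 with shCdk8-1 on day 8. In the same order 19.5%, 39%, 22%, 12.2%, 19.5% and 17.1% of the list were called, beside 17.8%, 24.9%, 11.6%, 12.6%, 14.0% and 16.9% of all genes. How the values of single genes of this list held with slide in the fit is not given here. The largest falls were Pola2, the second subunit of polymerase alpha (-0.72 with shCdk8-2 on day 13 and -0.58 on day 8), Orc5 of the origin recognition complex (-0.68 with shMed12-1, but 0.37 with shCdk8-2 on day 8), the factor E2f2 (-0.47 with shMed12-2 and -0.64 with shCdk8-2 on day 8) and Rfc1, the large clamp loader subunit (-0.52 and -0.38 with shCdk8-1 on days 13 and 8). Prim2, the second primase subunit, rose by 0.47 with shMed12-1, where Prim1 fell. These values hold for the hairpin named, and hairpins to the same gene differed in this list. Differences ran from -0.48 to 0.72 between shMed12-2 and shMed12-1. Between shCdk8-2 and shCdk8-1 they ran from -0.70 to 0.46 on day 13 and from -0.54 to 0.39 on day 8.

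Of 55 other mitosis genes tested, 3 were called higher and 8 lower with shMed12-2, 0 and 10 with shMed12-1, 0 and 7 with shCdk8-2 and 2 and 4 with shCdk8-1 on day 13, and 3 and 12 with shCdk8-2 and 4 and 4 with shCdk8-1 on day 8. In the same order 20%, 18.2%, 12.7%, 10.9%, 27.3% and 14.5% of the list were called, beside 17.8%, 24.9%, 11.6%, 12.6%, 14.0% and 16.9% of all genes. Values of single genes of this list with slide in the fit are not given here either. Pttg1, the securin that guards sister chromatid cohesion, fell by 0.79 with shMed12-2 and by 0.44 and 0.40 with shCdk8-2 on days 13 and 8. Cep55, a protein of the last step of cytokinesis, fell by 0.58 and 0.38 with shCdk8-1 on days 13 and 8. Lmnb1, lamin B1 of the nuclear envelope, fell by 0.68 with shMed12-1. Kif15, a spindle motor, rose on day 8 by 0.38 with shCdk8-2 and 0.31 with shCdk8-1. A value given for 1 hairpin holds for that hairpin alone. Differences in this list ran from -0.91 to 0.78 between shMed12-2 and shMed12-1. Between shCdk8-2 and shCdk8-1 they ran from -0.50 to 0.40 on day 13 and from -0.46 to 0.49 on day 8. The median log2 fold change of the replication and mitosis lists lay between -0.12 and 0.02 in the 6 comparisons with shNTC.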

How the data were processed

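RNA of R1 cells (Cy5) and Stratagene universal mouse reference RNA (Cy3) were hybridised to 24 Agilent 2-colour arrays with no dye swap. Per the file headers and the submitters' processing notes, the authors scanned and quantified the arrays with Agilent Feature Extraction 10.7, and the median spot intensities and local background intensities are as deposited. The deposited log10 ratios of Feature Extraction (red over green) and the authors' deposited log2 table, whose values match those ratios with a slope near 1.00 and column medians of -0.0049 to 0.121, served as alternatives. How the authors left values blank in that table was not recorded, and 3376 to 10335 were blank per array.

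Intensities were background-corrected with normexp (offset 50) and loess-normalized within arrays in limma 3.58.1 (R 4.3.3), without the 1639 control spots. A probe was kept where every array of at least 1 group had it well above background in Cy5 (28294 of 41174), and the brightest probe of a gene was used (22387 genes, of which 13725 had a symbol through RefSeq accessions). A group-means model of all 24 arrays (16 residual degrees of freedom) with empirical Bayes moderation gave log2 fold changes, two-sided p-values and Benjamini-Hochberg adjustment per comparison over all genes, called at 0.05. The script was tested on simulated data. No array gives counts, so the number of arrays limits the precision. Pseudocounts were not used, and no spot was saturated.

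The members and gene lists were chosen with earlier results of these data known. Genes named in detail were E2f1, Mybl2, Pcna, Foxm1, Cdk1, Ccnb1 and Top2a, every gene called with both hairpins in 1 direction, and the 2 highest and 2 lowest called genes of each subgroup and comparison. Of the other replication and mitosis genes up to 3 per direction and comparison could be named. Motifs were searched in RefSeq promoters (GRCm38.p6). The alternatives were Feature Extraction's ratios, the authors' values, median centring, normexp by maximum likelihood, the Cy5 channel alone, no filter, the mean over probes, slide or replicate number as a block, no compressed arrays, only the groups compared, and each array left out in turn; a fit per probe was added after seeing the data.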

Additional observations from a re-analysis of the deposited data

How the results depend on the processing

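Of the 44 called values, 43 kept their call with Feature Extraction's log ratios, 43 with the authors' deposited values, 44 with normexp by maximum likelihood, 41 with the replicate block, 40 without the 2 compressed arrays, 37 with the mean over probes, 34 with no filter, 30 in the Cy5 channel alone, 30 with only the groups compared, 13 with slide as a block and 2 after median centring. None of the 44 turned its direction in these settings. Leaving out each of the 6 arrays of a comparison in turn gave 264 outcomes for the 44 values, from fits that many values share. In these, 193 calls were kept and 71 lost, and 24 of the 44 values lost none.

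Counts of genes called are given in 3 sets: the hairpins against shNTC (shMed12-2, shMed12-1, shCdk8-2 and shCdk8-1 on day 13, shCdk8-2 and shCdk8-1 on day 8), at first 8, 10, 6, 3, 10 and 7; day 13 against day 8 (shCdk8-2, shCdk8-1, shNTC), at first 21, 5 and 5; and shMed12-2 against shMed12-1, shCdk8-2 against shCdk8-1 on day 13 and on day 8, and Med12 against Cdk8 knockdown, at first 7, 9, 10 and 8. Median centring gave 0, 1, 0, 0, 0 and 1 (beside 4.93%, 5.9%, 0.898%, 1.55%, 1.44% and 3.7% of all genes), then 2, 2 and 0, then 0, 0, 0 and 0. With slide as a block the counts were 5, 0, 2, 1, 4 and 1, then 15, 5 and 5, then 0, 6, 0 and 5. With only the groups compared they fell or rose to 5 for shCdk8-1 on day 13 and 2 on day 8, to 10, 2 and 8 between days, and to 4, 2, 0 and 5 in the third set. Feature Extraction's ratios and the authors' values both gave 15 for shMed12-2, 10 and 7 for shCdk8-2 and shCdk8-1 on day 13, 9 for shCdk8-1 between days, 11 between the Med12 hairpins and 1 for the difference of the Cdk8 effects between days. More of all genes were then called in 1 direction with both hairpins too. Their share was 12.1% and 12.5% for Med12, against 8.61%, and 8.17% and 8.45% for Cdk8 on day 13, against 4.22%. These shares cannot exceed those for 1 hairpin and are no background for the counts with 1 hairpin. The Cy5 channel alone gave 6 for shCdk8-1 on day 13 and 5 between the Cdk8 hairpins on that day. With no filter 3 genes were called between days in shNTC cells and 4 between the Med12 hairpins, and the mean over probes gave 5 for Med12 against Cdk8 knockdown. Without the 2 compressed arrays 6 were called for shCdk8-1 on day 13 and 6 between the Cdk8 hairpins on day 8. The cause of these shifts was not tested. Leaving out 1 array gave 5 to 6, 6 to 8, 3 to 5, 3 to 3, 6 to 14 and 5 to 6, then 13 to 20, 5 to 6 and 2 to 5, then 2 to 7, 5 to 7, 6 to 9 and 6 to 8, and 0 to 0 for the difference of the Cdk8 effects.

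Replicate numbers did not pair the arrays: over 18 pairs, correlations of deviations from the group means ran from -0.118 to 0.210, 2 were over 0.1, and 6 of 18 correlated best with their own number. The replicate block gave 7, 10, 4, 4, 11 and 7, then 21, 5 and 4, then 7, 8, 10 and 8, and 0 for the difference of the Cdk8 effects.

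Median centring moved the median log2 fold change of the replication genes to -0.22 with shCdk8-2 on day 13, -0.14 with shMed12-2, and -0.07 with shCdk8-1 on day 13, and 0.18 with shCdk8-1 on day 8, and the Cy5 channel alone moved it to -0.21 with shMed12-1 and -0.07 with shCdk8-1 on day 8. For mitosis genes median centring gave -0.16 with shMed12-2, -0.10 with shCdk8-1 on day 13 and 0.10 with it on day 8.

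A fit per probe, added after seeing the data, called 9, 12, 8, 4, 13 and 8 of the 52 probes in the first set, beside 16.9%, 23.5%, 11%, 11.7%, 13.7% and 16.1% of all probes. Of 66 gene comparisons with several probes, 48 had 1 sign and 0 held opposite calls.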
